A study of Homo sapiens with 10 samples.

Results

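The Hippo pathway kinases and effectors described here were 10 genes of the 52402 gene symbols counted in BEAS2B cells, an immortalised line made from human bronchial epithelium. They were taken by symbol: the kinases LATS1 and LATS2, the upstream regulators NF2 and AMOTL2, the co-activators YAP1 and WWTR1 (TAZ), the DNA-binding partners TEAD1, TEAD3 and TEAD4, and the target gene ANKRD1. Each symbol stood on a single row in all 10 libraries, and all 10 genes passed the filter on low counts. Cells were transfected by lipofection and harvested after 48 h, and their poly(A) RNA was sequenced in 5 groups of 2 libraries. The question of the experiment was how the mRNA profile of a normal lung line responds to miRNAs picked from exosomes of small cell lung cancer. The control group, miRcontrol, received a scrambled miRNA at 50 nM. The group miR3124_mimic received a mimic of miR-3124-5p, miR200b_mimic a mimic of miR-200b-3p and miR92b_inhibitor an inhibitor of miR-92b, each at the same concentration. The group MIX received the 3 reagents together, in amounts that were not given in the sources used here. All groups therefore share the transfection itself, the cells came from a single line, and nothing in the sources says whether the 2 libraries of a group were separate transfections, so p-values measure only the spread between these libraries. The labels did not say which arm of miR-92b the inhibitor was made for, so the sequences of both arms are shown. The miRNA that the paper reports as lower in exosomes of small cell lung cancer is miR-92b-5p.

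The Hippo pathway restrains growth in epithelia in response to cell contact, polarity and tension. The kinases MST1 and MST2 (genes STK4 and STK3), with SAV1, activate LATS1 and LATS2, which with MOB1 phosphorylate YAP and TAZ and keep them out of the nucleus. NF2, also called merlin, brings LATS to the membrane, and AMOTL2 holds YAP at junctions. When the kinases are quiet, YAP and TAZ enter the nucleus, bind TEAD factors and switch on genes such as ANKRD1, CCN1 and CCN2. Because the pathway is controlled mainly by phosphorylation and location, mRNA levels show how much of each component was transcribed and kept, not its activity.

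A mature miRNA pairs with mRNAs mainly through its seed, bases 2 to 8. The 4 mature sequences concerned are shown 5′ to 3′ with the seed in capitals (RefSeq, GRCh38.p14), because the matches in the members described next follow from them. No 2 of the seeds are the same.
miR-3124-5p (chr1:248826383-248826403, plus strand): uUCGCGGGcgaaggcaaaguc
miR-200b-3p (chr1:1167160-1167181, plus strand): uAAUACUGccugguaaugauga
miR-92b-5p (chr1:155195196-155195217, plus strand): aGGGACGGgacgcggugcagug
miR-92b-3p (chr1:155195237-155195258, plus strand): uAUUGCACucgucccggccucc

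The seed word, the DNA complement of the seed (CCCGCGA for miR-3124-5p, CAGTATT for miR-200b-3p, CCGTCCC for miR-92b-5p and GTGCAAT for miR-92b-3p), was searched on the mRNA strand of each member's 3′UTR in the GENCODE v29 transcript with the longest coding sequence. No member held the word of miR-3124-5p, which 0.521% of 18250 genes with a 3′UTR hold. The word of miR-200b-3p was found in 4 members (14.3% of all genes) and that of miR-92b-3p in 3 members (9.40%). Stretches around 7 of these words are given with the word in capitals to show where the kinases, YAP1, NF2 and AMOTL2 hold a match, and the word of miR-92b-3p concerns a reagent only if the inhibitor was made for that arm.
YAP1, word of miR-200b-3p, chr11:102230482-102230488, plus strand: ctgttttactttCAGTATTttcttttcctc
LATS1, word of miR-200b-3p, chr6:149661537-149661543, minus strand: agccgtttaaatCAGTATTtagaaaaaaat
LATS2, word of miR-200b-3p, chr13:20973201-20973207, minus strand: cgtcgtgactgtCAGTATTctcgctatttt
AMOTL2, word of miR-200b-3p, chr3:134355901-134355907, minus strand: cactgggtataaCAGTATTttaattaaaaa
LATS1, word of miR-92b-3p, chr6:149659609-149659615, minus strand: ttttggactaagGTGCAATacagtagaaga
LATS2, word of miR-92b-3p, chr13:20974442-20974448, minus strand: tgagaaatctctGTGCAATaatgtaaaaaa
NF2, word of miR-92b-3p, chr22:29694961-29694967, plus strand: agcccctcttatGTGCAATtgccttgaact
Coordinates are those of GRCh38 and cover the word. The 2 words of miR-92b-3p in LATS1 and LATS2 are followed by an A, the longer match that a miRNA site can have, and the other 5 shown are not. Long 3′UTRs hold more words by length alone: among genes of similar 3′UTR length (a ratio of at least 0.8, the shorter to the longer), the word of miR-200b-3p was held by 37.2% for YAP1, 37.1% for LATS1 and 18.8% for both LATS2 and AMOTL2. For the word of miR-92b-3p the shares were 24.0% for LATS1, 11.9% for LATS2 and 24.3% for NF2. With the transcript that has the longest 3′UTR instead, TEAD1 also held the word of miR-200b-3p, which makes 5 members. A matching word is a description of the sequence and does not show that the miRNA binds there.

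Library totals ran from 13587666 to 18503890 counts, and the members had between 406 and 9660 counts in every library. ZEB1 and ZEB2, the mRNAs for which miR-200b-3p is best known, fell in the groups that received its mimic, by 1.29 and 2.27 on the log2 scale in miR200b_mimic and by 1.12 and 1.66 in MIX. Of 8 airway epithelial markers 6 could be tested, and KRT5 and TP63, which mark basal cells of the bronchus, had at most 9 counts in any library. The epithelial markers moved with the groups: their summed level was 2220 to 2268 CPM (CPM, the read count scaled to a common library size) in miRcontrol, 4188 to 4270 CPM in miR200b_mimic with 6 of the 6 higher, and 4081 to 4109 CPM in MIX with 5 higher and KRT19 lower. CDH1 had 2 to 3 counts in miRcontrol and 146 to 157 in miR200b_mimic. The summed epithelial level was 2774 to 2781 CPM with miR-3124-5p, where KRT8 and KRT18 were higher and KRT19 lower (0.760 CPM, beside 8.20 in miRcontrol), and 2098 to 2188 CPM with the inhibitor, where KRT7 and KRT19 were lower. The summed level of 4 mesenchymal markers was 7325 to 7347 CPM in miRcontrol, 4408 to 4530 with miR-3124-5p, 4617 to 4672 with miR-200b-3p, 6830 to 6976 with the inhibitor and 4969 to 4990 in MIX. Its genes did not move together: with miR-3124-5p VIM fell from a mean of 3800.4 to 813 CPM, COL1A1 rose from 11.99 to 23.8 CPM, and FN1 and CDH2 did not pass the test. With miR-200b-3p and in MIX, VIM, FN1 and CDH2 fell and COL1A1 rose, to 36.9 and 22.0 CPM, and with the inhibitor VIM rose and the other 3 fell. PTPRC, PECAM1 and CHGA, which define leukocytes, endothelium and neuroendocrine cells, had at most 4 counts in any library, and the neuroendocrine gene SYP at most 11. CDH5, another endothelial gene, had 44 to 59 counts in miR3124_mimic and at most 10 elsewhere. The summed leukocyte level, nearly all of it CD68, was 17.35 to 40.68 CPM over the libraries, highest in miR92b_inhibitor. In bulk RNA, fewer cells of a type and less RNA per cell cannot be told apart, and the part that these markers have in the results that follow was not tested.

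Levels are given throughout as normalised CPM, for which library sizes were adjusted with edgeR's RLE factors. Differences are log2 fold changes with their standard error (SE) from edgeR's quasi-likelihood test on all 14884 genes that passed the filter, and a gene is called changed at a Benjamini-Hochberg adjusted p under 0.05. In miR3124_mimic 3 members rose and 5 fell, where 25.7% of all genes tested rose and 25.3% fell. In miR200b_mimic 3 rose and 3 fell, against 21.4% and 19.1% of all genes. In miR92b_inhibitor 3 rose and 3 fell, against 17.5% and 18.2%. In MIX 5 rose and 3 fell, against 21.5% and 21.1%. In either direction 8, 6, 6 and 8 of the 10 were thus called, beside 51.0%, 40.6%, 35.7% and 42.7% of all genes, and 10 genes are too few to read a difference from these shares. The median size of their changes was 0.20, 0.14, 0.16 and 0.26 on the log2 scale, beside 0.29, 0.23, 0.20 and 0.23 over all genes. It was smaller than over all genes in every group but MIX, where it was slightly larger. Against miRcontrol a change of 2-fold or more was reached by 1 member in 1 comparison, ANKRD1 in miR200b_mimic, where 4.88% of all genes passed that rule. No member passed it in the other comparisons with miRcontrol, where 8.13% (miR3124_mimic), 1.91% (miR92b_inhibitor) and 4.67% (MIX) of all genes did.

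**Figure D1:**
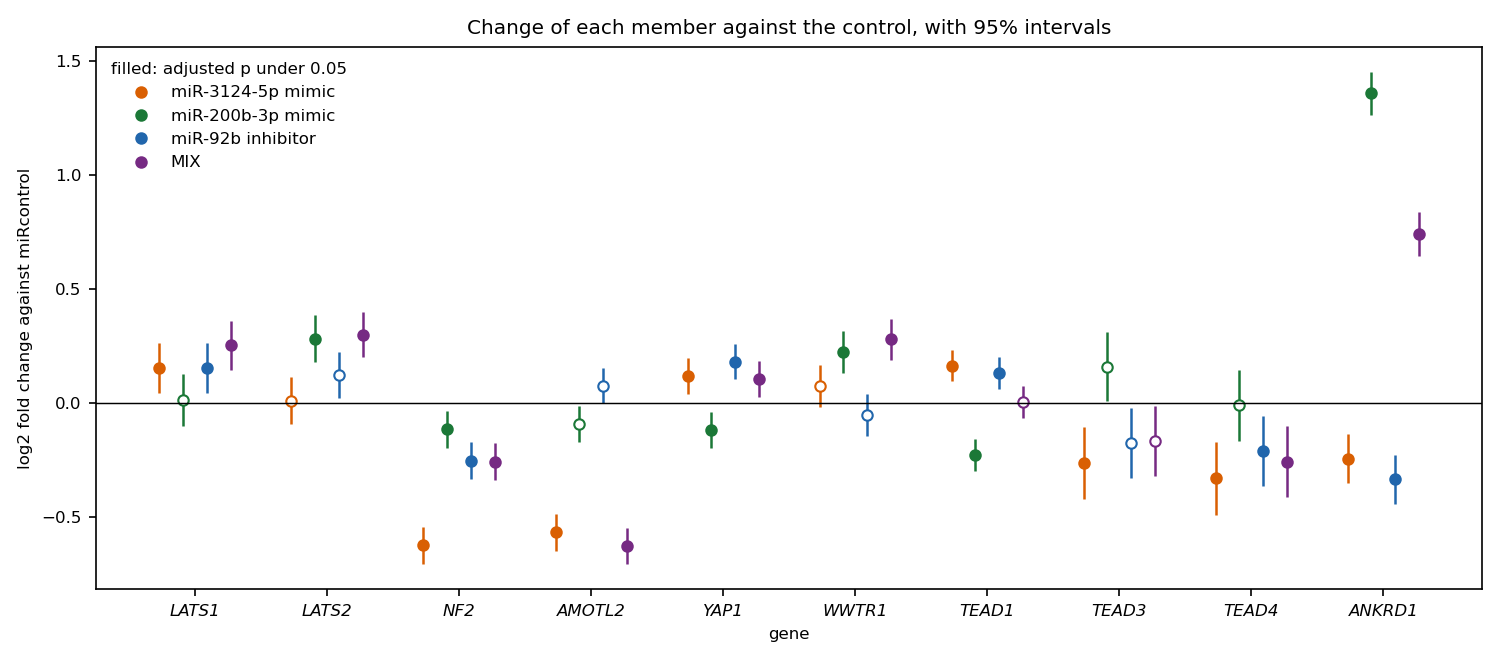
Log2 fold change of each member against miRcontrol, with its 95% interval, in the 4 groups given a mimic or inhibitor; filled points have an adjusted p under 0.05. ANKRD1 stands at 1.36 in miR200b_mimic and 0.74 in MIX, NF2 lies below 0 in all 4 groups, and AMOTL2 has its lowest values in miR3124_mimic and MIX.

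The kinases rose or did not pass the test, and neither fell in any group. LATS1 (chr6:149658153-149718256, minus strand) is a kinase that phosphorylates YAP and TAZ. It stood at 80.6 and 75.2 CPM for miRcontrol, 89.6 and 83.9 for miR3124_mimic, 79.6 and 77.7 for miR200b_mimic, 81.6 and 91.4 for miR92b_inhibitor and 91.1 and 94.5 for MIX. Both MIX libraries were above both control libraries by more than the pairs differed, while miR200b_mimic lay inside the control range. In MIX the log2 fold change was 0.25 (SE 0.05, adjusted p = 0.000129). The rises in miR3124_mimic (0.15, SE 0.06, adjusted p = 0.0184) and miR92b_inhibitor (0.15, SE 0.05, adjusted p = 0.0250) were of similar size to each other. They were lost with DESeq2 (adjusted p = 0.0737 and 0.0921) and without the second control library (0.10 in both, adjusted p = 0.240 and 0.285), and also without the first miR3124_mimic library (0.11, adjusted p = 0.213) or the second miR92b_inhibitor library (0.07, adjusted p = 0.498). In miR200b_mimic the value was 0.01, with a 95% interval of -0.10 to 0.13.

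LATS2 (chr13:20973032-21061547, minus strand), the other LATS kinase, rose in the groups that received the miR-200b-3p mimic. Its levels were 99.7 and 91.3 CPM for miRcontrol, 100.3 and 92.4 for miR3124_mimic, 117 and 115 for miR200b_mimic, 103 and 105 for miR92b_inhibitor and 114 and 121 for MIX. The miR200b_mimic and MIX libraries were higher than all 6 others, and the miR3124_mimic libraries overlapped those of miRcontrol. LATS2 rose by 0.28 (SE 0.05, adjusted p = 9.21e-06) in miR200b_mimic and by 0.30 (SE 0.05, adjusted p = 2.12e-06) in MIX. The difference in miR92b_inhibitor, 0.12 (SE 0.05, adjusted p = 0.0554), passed the threshold under several other settings, among them TMM scaling (adjusted p = 0.0372) and a fit without the first control library (0.19, adjusted p = 0.0198). In miR3124_mimic the value was 0.01, with an interval of -0.09 to 0.11.

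**Figure D2:**
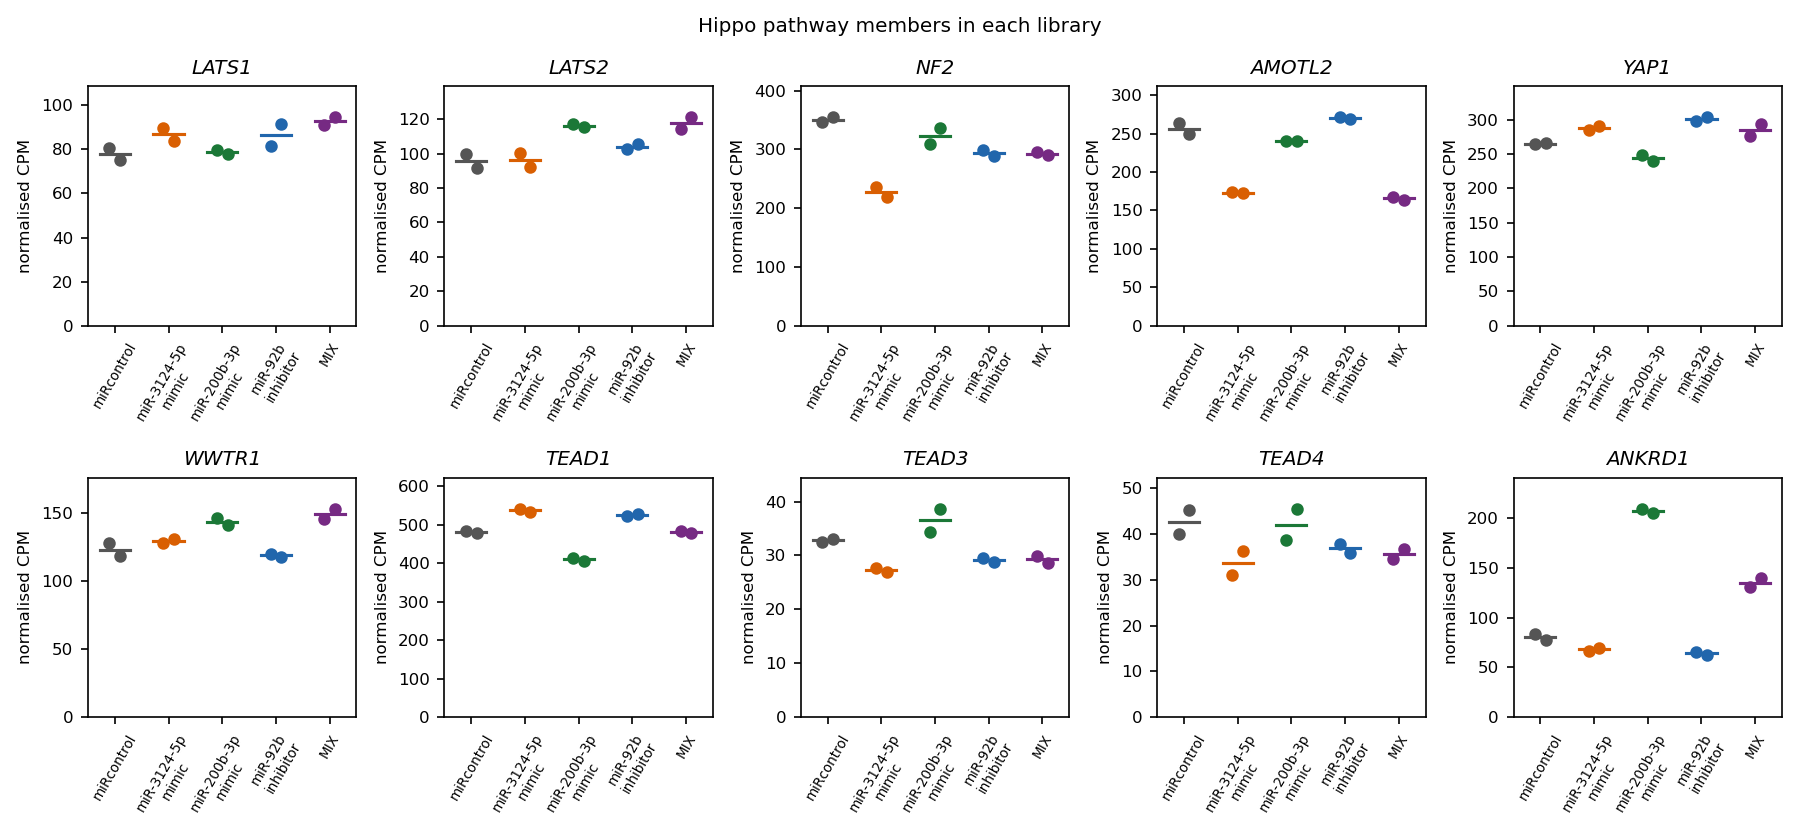
Normalised CPM of each member in every library (points) with the group mean (bars), on axes that start at 0. LATS2 and WWTR1 are highest in miR200b_mimic and MIX, AMOTL2 is lowest in miR3124_mimic and MIX, and ANKRD1 reaches 209 CPM in miR200b_mimic.

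NF2 (chr22:29603556-29698598, plus strand) encodes merlin, a tumour suppressor that recruits LATS to the membrane, and was the only member that fell in all 4 groups given a mimic or inhibitor. Its libraries held 346 and 355 CPM for miRcontrol, 235 and 219 for miR3124_mimic, 309 and 337 for miR200b_mimic, 299 and 289 for miR92b_inhibitor and 295 and 291 for MIX. The miR3124_mimic pair lay far under every other library, and all 8 libraries with a mimic or inhibitor lay under both controls. The change was -0.63 in miR3124_mimic (SE 0.04, adjusted p = 8.28e-18), which 21.7% of all genes exceeded in size. It was -0.25 in miR92b_inhibitor (SE 0.04, adjusted p = 1.47e-06) and -0.26 in MIX (SE 0.04, adjusted p = 5.86e-07). The smaller fall in miR200b_mimic, -0.12 (SE 0.04, adjusted p = 0.0177), was lost without the first miR200b_mimic library (-0.05, adjusted p = 0.377) and without the second control library (-0.10, adjusted p = 0.141). The drop in MIX was smaller than with miR-3124-5p alone: MIX was higher than miR3124_mimic by 0.37 (SE 0.04, adjusted p = 2.41e-10).

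AMOTL2 (chr3:134355874-134375479, minus strand), an angiomotin family scaffold that binds YAP, fell in the groups that received the miR-3124-5p mimic. It stood at 263 and 249 CPM for miRcontrol, 174 and 172 for miR3124_mimic, 241 and 240.2 for miR200b_mimic, 271 and 269 for miR92b_inhibitor and 168 and 163 for MIX. The miR3124_mimic and MIX libraries formed a low range of 163 to 174 CPM that met none of the other libraries. AMOTL2 changed by -0.57 in miR3124_mimic (SE 0.04, adjusted p = 9.66e-17) and by -0.63 in MIX (SE 0.04, adjusted p = 3.76e-18). Between these groups the difference was -0.06, with an interval of -0.14 to 0.02 (adjusted p = 0.223). In miR200b_mimic AMOTL2 was lower by a margin that missed the threshold (-0.09, SE 0.04, adjusted p = 0.0550) and passed it with library totals in place of RLE factors (-0.10, adjusted p = 0.0244) and without the second control library (-0.13, adjusted p = 0.0309). In miR92b_inhibitor it stood at 0.08 (interval -0.0012 to 0.15, adjusted p = 0.122). AMOTL2 has no word of miR-3124-5p in the 3′UTR searched. Of the stretches of 100 bases in its transcript, 1.99% also occur in the processed pseudogene RPL39P5, which overlaps its exons on the same strand.

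YAP1 (chr11:102110461-102233423, plus strand), the co-activator that the kinases restrain, changed little but in every group. Its levels were 265 and 265 CPM for miRcontrol, 285 and 291 for miR3124_mimic, 249 and 240 for miR200b_mimic, 298 and 304 for miR92b_inhibitor and 277 and 294 for MIX. The miR200b_mimic libraries were the lowest of the 10 and the miR92b_inhibitor libraries the highest. YAP1 rose by 0.18 in miR92b_inhibitor (SE 0.04, adjusted p = 0.000178) and by 0.12 in miR3124_mimic (SE 0.04, adjusted p = 0.00920). In MIX it rose by 0.10 (SE 0.04, adjusted p = 0.0247). It changed by -0.12 in miR200b_mimic (SE 0.04, adjusted p = 0.0129). The last 3 calls were each lost when either control library was left out, with values of 0.12, 0.10 and -0.12 and adjusted p from 0.0538 to 0.103. They were also lost without the second library of miR3124_mimic (0.10, adjusted p = 0.0960), of MIX (0.06, adjusted p = 0.384) or of miR200b_mimic (-0.09, adjusted p = 0.160). MIX was higher than miR200b_mimic by 0.22 (SE 0.04, adjusted p = 7.55e-06). Both groups received the mimic that matches a word in the YAP1 3′UTR. Of the 4 members with that word in the 3′UTR searched, 1 fell (YAP1) and 1 rose (LATS2) in miR200b_mimic. In MIX 1 of them fell (AMOTL2) and 3 rose (LATS1, LATS2 and YAP1). TEAD1, which held the word only with the longest 3′UTR, fell in miR200b_mimic and did not pass the test in MIX.

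WWTR1 (chr3:149517235-149736714, minus strand) encodes TAZ, the paralogue of YAP, and followed another order than YAP1. It stood at 128 and 119 CPM for miRcontrol, 128 and 131 for miR3124_mimic, 147 and 141 for miR200b_mimic, 120.0 and 118 for miR92b_inhibitor and 146 and 153 for MIX. The miR200b_mimic and MIX libraries were above all others. WWTR1 rose by 0.22 in miR200b_mimic (SE 0.05, adjusted p = 8.62e-05) and by 0.28 in MIX (SE 0.04, adjusted p = 1.12e-06), and these 2 groups differed by 0.06 (interval -0.03 to 0.15, adjusted p = 0.331). The values in miR3124_mimic (0.08, interval -0.02 to 0.17) and miR92b_inhibitor (-0.05, interval -0.14 to 0.04) did not pass the test. In miR200b_mimic the 2 co-activators thus had changes of opposite sign. The antisense gene WWTR1-AS1 overlaps 9.45% of the WWTR1 exons and AP000942.2 overlaps 9.97% of those of YAP1. The strand setting of the counting was not given in the sources used here, so reads from such partners cannot be told apart.

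Of the TEAD factors, which bring YAP and TAZ to DNA, TEAD1 moved in the opposite direction to TEAD3 and TEAD4 in miR3124_mimic. TEAD1 (chr11:12674591-12944483, plus strand) stood at 483 and 477 CPM for miRcontrol, 541 and 534 for miR3124_mimic, 413 and 407 for miR200b_mimic, 523 and 529 for miR92b_inhibitor and 484 and 479 for MIX. No pair overlapped that of miRcontrol except MIX, which covered almost the same range. TEAD1 rose by 0.16 in miR3124_mimic (SE 0.03, adjusted p = 7.74e-05) and by 0.13 in miR92b_inhibitor (SE 0.03, adjusted p = 0.00189). It changed by -0.23 in miR200b_mimic (SE 0.03, adjusted p = 4.73e-07), and in MIX the value was 0.00 with an interval of -0.06 to 0.07. MIX differed from each single group: by -0.16 from miR3124_mimic (adjusted p = 0.000128), 0.23 from miR200b_mimic (adjusted p = 3.80e-07) and -0.13 from miR92b_inhibitor (adjusted p = 0.00233).

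TEAD3 (chr6:35473597-35497076, minus strand) stood at 32.6 and 33.1 CPM for miRcontrol, 27.7 and 27.0 for miR3124_mimic, 34.3 and 38.7 for miR200b_mimic, 29.5 and 28.7 for miR92b_inhibitor and 29.97 and 28.6 for MIX. Only the miR200b_mimic libraries exceeded the controls. It changed by -0.26 in miR3124_mimic (SE 0.08, adjusted p = 0.00399). The values of -0.17 in miR92b_inhibitor (adjusted p = 0.0699), -0.17 in MIX (adjusted p = 0.0733) and 0.16 in miR200b_mimic (adjusted p = 0.0898) missed the threshold, and the last passed it without the first miR200b_mimic library (0.24, adjusted p = 0.0296). Between MIX and miR200b_mimic the difference was -0.33 (SE 0.08, adjusted p = 0.000506), and -0.23 without the second miR200b_mimic library (adjusted p = 0.0588).

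TEAD4 (chr12:2959330-3040673, plus strand) held 40.1 and 45.3 CPM for miRcontrol, 31.1 and 36.4 for miR3124_mimic, 38.6 and 45.5 for miR200b_mimic, 37.8 and 35.9 for miR92b_inhibitor and 34.6 and 36.8 for MIX. Its pairs were wide, and those of miR200b_mimic and miRcontrol covered nearly the same range. TEAD4 changed by -0.33 in miR3124_mimic (SE 0.08, adjusted p = 0.000444), by -0.26 in MIX (SE 0.08, adjusted p = 0.00530) and by -0.21 in miR92b_inhibitor (SE 0.08, adjusted p = 0.0278). Without the second control library the values in MIX and miR92b_inhibitor were -0.17 (adjusted p = 0.167) and -0.12 (adjusted p = 0.376). The MIX call was lost also without the first MIX library (-0.21, adjusted p = 0.0731), and the miR92b_inhibitor call without its second library (-0.17, adjusted p = 0.204) and with DESeq2 (adjusted p = 0.118). In miR200b_mimic the value was -0.01, with an interval of -0.17 to 0.14.

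ANKRD1 (chr10:90912096-90921276, minus strand), a nuclear ankyrin repeat protein and a standard readout of YAP and TAZ, moved most of the 10. It stood at 84.0 and 77.7 CPM for miRcontrol, 66.9 and 69.4 for miR3124_mimic, 209 and 205 for miR200b_mimic, 65.4 and 62.8 for miR92b_inhibitor and 130.5 and 140 for MIX. No pair overlapped that of another group, and miR3124_mimic and miR92b_inhibitor lay closest to each other, both under the controls. In miR200b_mimic ANKRD1 rose 2.56-fold (log2 1.36, SE 0.05, adjusted p = 8.06e-28), a change that 3.55% of all genes exceeded. In MIX it rose 1.67-fold (log2 0.74, SE 0.05, adjusted p = 1.43e-17). It changed by -0.24 in miR3124_mimic (SE 0.05, adjusted p = 0.000146) and by -0.34 in miR92b_inhibitor (SE 0.05, adjusted p = 1.80e-06). MIX was lower than miR200b_mimic by 0.62 on the log2 scale (log2 fold change -0.62, SE 0.04, adjusted p = 6.67e-16). The rise of ANKRD1 in miR200b_mimic stood beside a rise of LATS2 and WWTR1 and a fall of YAP1, TEAD1 and NF2, and beside the epithelial marker values given above.

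Set against each single group, MIX differed at 5 members from miR3124_mimic, at 8 from miR200b_mimic and at 5 from miR92b_inhibitor, where 49.1%, 38.6% and 39.6% of all genes differed. The 8 against miR200b_mimic were all members but WWTR1 and LATS2, and without the second miR200b_mimic library 5 were left, the calls for TEAD3 (-0.23, adjusted p = 0.0588), TEAD4 (-0.12, adjusted p = 0.405) and NF2 (-0.08, adjusted p = 0.211) being lost. The TEAD4 call was also lost without the first MIX library (-0.20, adjusted p = 0.103) and with DESeq2 (adjusted p = 0.0686). Against miR92b_inhibitor the call for LATS2 was lost (0.13, adjusted p = 0.0951) and one for YAP1 gained (-0.12, adjusted p = 0.0397) without the second MIX library, and one for LATS1 was gained without the second miR92b_inhibitor library (0.18, adjusted p = 0.0247). ANKRD1 showed the largest differences of the members, being 1.98-fold higher in MIX than in miR3124_mimic (log2 0.99, SE 0.05, adjusted p = 1.46e-21) and 2.11-fold higher than in miR92b_inhibitor (log2 1.08, SE 0.05, adjusted p = 5.47e-23). For AMOTL2, MIX was apart from both other groups, by -0.54 from miR200b_mimic (adjusted p = 2.43e-15) and -0.70 from miR92b_inhibitor (adjusted p = 5.68e-20). The comparisons with miRcontrol share its 2 libraries, so values of a member in several of them are not independent.

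Levels were also scaled per kilobase of exon (GENCODE v29 exon union, the exons of all transcripts of a gene). In miRcontrol NF2 stood highest on this scale at 48.8 CPM per kb. TEAD1 followed at 46.7, AMOTL2 at 42.8, YAP1 at 42.2 and ANKRD1 at 40.8. TEAD4 at 18.8, LATS2 at 17.1, WWTR1 at 14.7, TEAD3 at 10.8 and LATS1 at 9.01 formed a lower range. On this scale YAP1 mRNA exceeded that of its paralogue WWTR1 in all 5 groups. The neighbours AMOTL2, YAP1 and ANKRD1 did not differ by more than the spread of their libraries in miRcontrol. The order changed between groups: in miR200b_mimic ANKRD1 stood first at 104.7 CPM per kb, in MIX also at 68.3, and in miR3124_mimic NF2 fell to 31.7, below TEAD1, YAP1 and ANKRD1. The annotation used for the counting was not given in the sources used here, so these lengths are approximate. The union can be far longer than a single transcript. For TEAD1 it has 10279 bases, while the transcript searched for words holds 2445 different stretches of 100 bases. The order of the genes therefore depends on the length chosen.

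**Figure D3:**
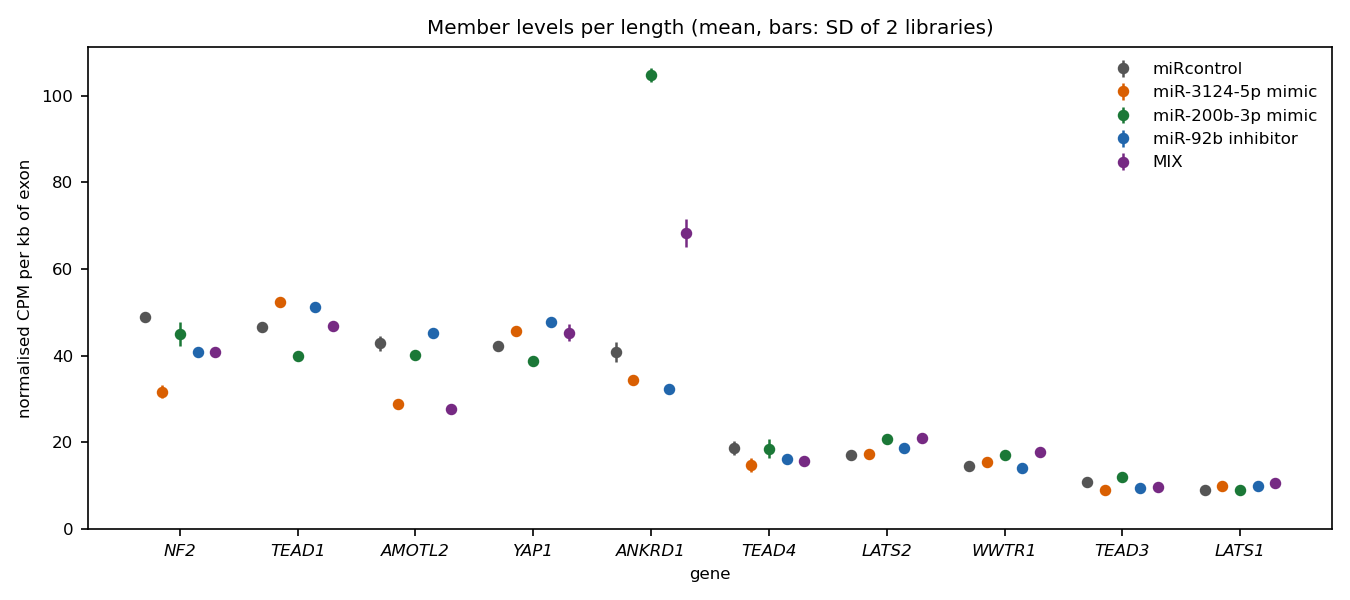
Mean normalised CPM per kilobase of exon for each member in the 5 groups, ordered by the level in miRcontrol; bars are the SD of 2 libraries. ANKRD1 reaches 104.7 in miR200b_mimic, and TEAD4, LATS2, WWTR1, TEAD3 and LATS1 stay under 22 in every group.

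The 10 members did not share a single pattern over the 10 libraries. As a description over libraries that come from only 5 treatments, the log2 CPM of YAP1 had a Pearson r of 0.891 with TEAD1, and WWTR1 had 0.833 with ANKRD1 and 0.788 with LATS2. TEAD1 had -0.918 with ANKRD1, and YAP1 had -0.359 with WWTR1 and -0.733 with ANKRD1. Among 12899 genes with a mean of at least 1 CPM, those most like ANKRD1 were PATJ (r = 0.992) and PRSS16 (0.991), those most like TEAD1 were PHACTR1 (0.990) and ZNF192P1 (0.986), and those most like LATS2 were PRKCI (0.981) and STAM (0.968). PAPOLA (0.975) and GNG11 (0.971) were nearest to YAP1, PDZD2 (0.967) and HSPA5 (0.966) to WWTR1, and LOC101929506 (0.916) and ZNF17 (0.915) to LATS1. QSER1 (0.974) and ACVR1B (0.970) were nearest to AMOTL2, and MLLT1 (0.971) and PAPD7 (0.967) to NF2. CYTH1 (0.969) and CYB5R3 (0.968) were nearest to TEAD3, and C17orf67 (0.941) and F12 (0.938) to TEAD4. With 5 treatments and this many genes, high values of r arise readily.

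The rest of the pathway was described from a list of 27 genes, all of which were tested. In miR3124_mimic 10 rose and 10 fell. The counts were 9 and 5 for miR200b_mimic, 6 and 9 for miR92b_inhibitor and 7 and 9 for MIX. In these groups 74.1%, 51.9%, 55.6% and 59.3% of the list were called, beside 51.0%, 40.6%, 35.7% and 42.7% of all genes. The median change of the list was 0.02, 0.04, -0.04 and 0.02 in these groups, beside 0.00, -0.01, -0.01 and 0.00 over all genes tested. Without regard to sign its median was 0.16, 0.21, 0.15 and 0.18, beside 0.29, 0.23, 0.20 and 0.23 over all genes. The higher shares called therefore do not mean larger changes. Without the second miR3124_mimic library 12 of the 27 passed in miR3124_mimic instead of 20.

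In miR3124_mimic the largest changes in the list were rises of the cofactors VGLL3 and VGLL4, which bind TEAD in competition with YAP, and of WWC3, a relative of the scaffold KIBRA. VGLL3 went from 85.0 and 78.7 CPM to 182 and 169 (log2 1.10, SE 0.05, adjusted p = 6.22e-24), the only change of 2-fold or more in this list against miRcontrol. VGLL4 rose by 0.70 (SE 0.07, adjusted p = 4.04e-12) and WWC3 by 0.65 (SE 0.06, adjusted p = 1.19e-13). The LATS partner MOB1B and the related kinase STK38 rose as well, by 0.43 (adjusted p = 2.47e-09) and 0.55 (adjusted p = 8.27e-14). Their paralogues were not called. MOB1A had a mean of 225 CPM in miRcontrol and 228 in miR3124_mimic, and STK38L had 16.4 and 15.3 CPM. Among the genes that fell, RASSF1, an adaptor of the MST kinases, changed by -0.54 (SE 0.07, adjusted p = 4.60e-09) and LIMD1, which can hold LATS inactive at junctions, by -0.50 (SE 0.06, adjusted p = 3.01e-10).

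In miR200b_mimic WWC1, which encodes KIBRA and activates LATS, went from 150 and 148 CPM to 281 and 286 (log2 0.93, SE 0.04, adjusted p = 2.08e-24). STRN, a subunit of a phosphatase complex that inactivates MST kinases, changed by -0.63 (SE 0.05, adjusted p = 2.51e-14), and STK4, which encodes MST1, by -0.57 (SE 0.04, adjusted p = 3.75e-16). Both hold the word of miR-200b-3p. The LATS and MST adaptor SAV1 rose by 0.55 (adjusted p = 5.30e-12) and TAOK1, a kinase that can activate MST kinases, changed by -0.48 (adjusted p = 6.41e-14). Of the 10 list genes with that word, 4 fell and 3 rose in miR200b_mimic, and of the 17 without it 1 fell and 6 rose. Over all genes tested with a 3′UTR, 34.1% of the 2080 with the word fell and 18.6% of the 10048 without it. In MIX, which received the same mimic, 29.6% of those with the word fell and 25.1% rose. Of those without it, 22.8% fell and 24.3% rose in MIX. The genes with and without the word were not matched for 3′UTR length.

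**Figure D4:**
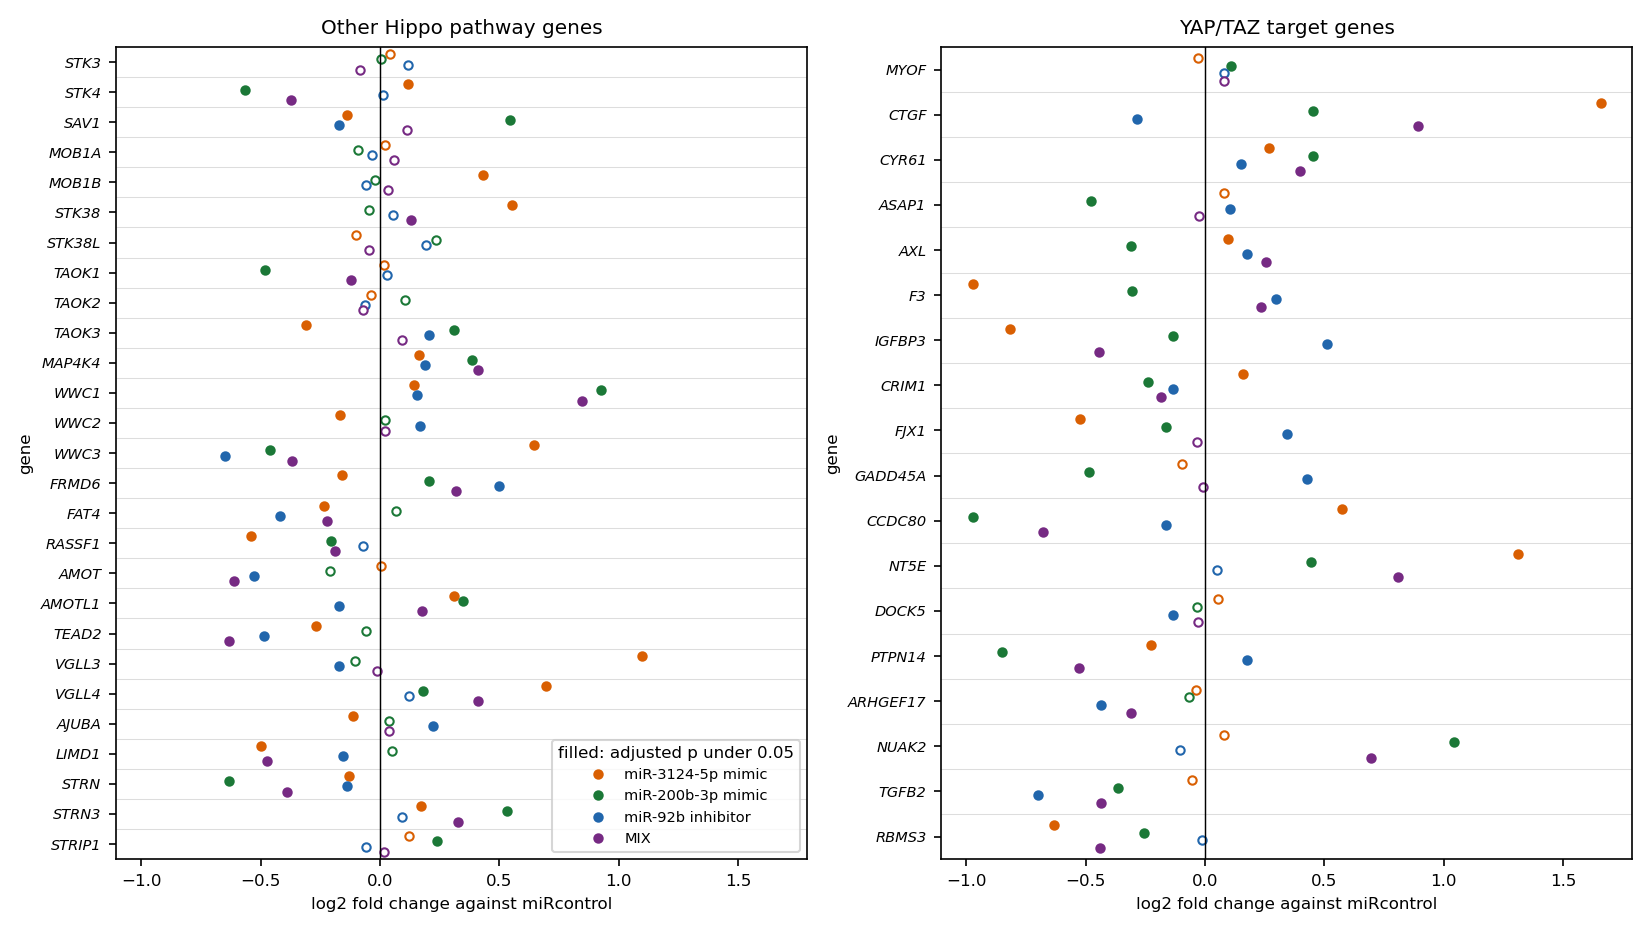
Log2 fold change against miRcontrol of 27 other Hippo pathway genes (left) and 18 target genes of YAP and TAZ (right) in the 4 groups given a mimic or inhibitor; filled points have an adjusted p under 0.05. CCN2 (listed as CTGF) reaches 1.66 and VGLL3 1.10 in miR3124_mimic, and most target genes lie below 0 in miR200b_mimic.

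In miR92b_inhibitor the largest changes were a fall of WWC3 from 64.2 and 63.3 CPM to 41.7 and 39.6 (log2 -0.65, SE 0.06, adjusted p = 1.41e-11), a fall of the angiomotin gene AMOT (-0.53, SE 0.14, adjusted p = 0.00313) and a rise of FRMD6, which encodes the upstream regulator Willin (0.50, SE 0.04, adjusted p = 8.52e-14). In MIX WWC1 rose to 271 and 266 CPM (log2 0.85, SE 0.04, adjusted p = 4.28e-23). TEAD2, the remaining TEAD gene, changed by -0.63 in MIX (SE 0.11, adjusted p = 2.30e-06), from 20.3 and 20.5 CPM to 13.5 and 12.8, and AMOT by -0.61 (SE 0.14, adjusted p = 0.000488). No gene of this list held the word of miR-92b-5p, miR-92b-3p or miR-3124-5p.

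Target genes of YAP and TAZ were taken as a list of 19, of which 18 passed the filter and FOXF2 did not. In miR3124_mimic 6 rose and 5 fell. The counts were 5 and 11 for miR200b_mimic, 8 and 6 for miR92b_inhibitor and 6 and 7 for MIX. The shares called were 61.1%, 88.9%, 77.8% and 72.2%, beside the same shares of all genes as above. The median change was 0.01, -0.20, 0.06 and -0.03, beside 0.00, -0.01, -0.01 and 0.00 over all genes tested. Without regard to sign the median was 0.19, 0.34, 0.17 and 0.35, beside 0.29, 0.23, 0.20 and 0.23 over all genes. It was thus smaller than over all genes in miR3124_mimic and miR92b_inhibitor and larger in miR200b_mimic and MIX. In miR200b_mimic more of these genes fell than rose while ANKRD1, CCN1 and CCN2 rose, so the members of the target list did not move as a block.

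CCN2 (CTGF), a secreted matrix protein, stood at 264 and 257 CPM for miRcontrol, 818 and 825 for miR3124_mimic, 344 and 367 for miR200b_mimic, 212 and 215 for miR92b_inhibitor and 483 and 484 for MIX. It rose by 1.66 in miR3124_mimic (SE 0.04, adjusted p = 8.35e-36), where ANKRD1 fell, by 0.45 in miR200b_mimic (adjusted p = 6.72e-14) and by 0.89 in MIX (adjusted p = 7.51e-25). In miR92b_inhibitor it changed by -0.29 (adjusted p = 7.31e-08). Its relative CCN1 (CYR61) rose in all 4 groups, from 710 and 683 CPM to 846 and 833 for miR3124_mimic, 922 and 983 for miR200b_mimic, 771 and 773 for miR92b_inhibitor and 912 and 925 for MIX. These are log2 changes of 0.27, 0.45, 0.15 and 0.40, with the largest adjusted p at 0.000603. ANKRD1 and CCN2 thus had opposite signs in miR3124_mimic and the same sign in the other 3 groups.

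Beyond these, NT5E, which encodes the ectoenzyme CD73, rose from 367 and 352 CPM to 903 and 882 in miR3124_mimic (log2 1.31, SE 0.04, adjusted p = 5.35e-32) and to 610 and 648 in MIX (0.81, SE 0.04, adjusted p = 1.57e-23). F3, the tissue factor gene, changed by -0.97 in miR3124_mimic (SE 0.04, adjusted p = 1.23e-24). The kinase gene NUAK2 rose from 15.3 and 13.0 CPM to 26.8 and 31.4 in miR200b_mimic (1.05, SE 0.10, adjusted p = 9.58e-12) and by 0.69 in MIX (SE 0.11, adjusted p = 3.57e-07). The secreted CCDC80 changed by -0.97 in miR200b_mimic (SE 0.06, adjusted p = 1.45e-17), and PTPN14, a phosphatase that itself restrains YAP, by -0.85 (SE 0.04, adjusted p = 1.63e-22). PTPN14 holds the word of miR-200b-3p. In miR92b_inhibitor the growth factor gene TGFB2 changed by -0.70 (SE 0.05, adjusted p = 2.97e-17), IGFBP3 rose by 0.51 (SE 0.05, adjusted p = 2.23e-11) and ARHGEF17 changed by -0.44 (SE 0.06, adjusted p = 2.06e-08).

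TEAD factors bind DNA at the core GGAATG (or CATTCC on the other strand). In RefSeq promoter windows of 250 bases before to 50 after the start, 14.0% of 35116 held it on either strand. Windows were matched for 8 members, and 4 of them held the core: ANKRD1, AMOTL2, YAP1 and LATS2. Those of ANKRD1, with 2 cores, and of CCN2, with 3, are shown because these are the target genes that parted in miR3124_mimic (GRCh38.p14, gene strand, core in capitals).
ANKRD1, chr10:90921302-90921307: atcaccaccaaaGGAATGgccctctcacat
ANKRD1, chr10:90921210-90921215: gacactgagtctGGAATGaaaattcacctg
CCN2, chr6:131951536-131951541: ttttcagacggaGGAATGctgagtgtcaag
CCN2, chr6:131951471-131951476: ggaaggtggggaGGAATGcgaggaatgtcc
CCN2, chr6:131951462-131951467: ggaggaatgcgaGGAATGtccctgtttgtg
Of the 19 genes in the target list 13 had a matched window, and 6 of these held the core. A gene was counted if any of its windows held the core, while the 14.0% is a share of single windows. The counts of genes and that share are therefore not comparable. ANKRD1 and CCN2 both carry more than 1 core and had opposite changes in miR3124_mimic. A match does not show that a TEAD factor was bound in these cells.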

How the data were processed

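Read quality was inspected with FastQC and adapters and poor reads were taken out with FASTX_Trimmer and BBMap by the authors, who mapped paired-end reads from a strand-marking poly(A) kit with TopHat to GRCh38, as the paper and the submitters' processing notes name them, and deposited whole-number read counts per gene symbol, without normalization, for each library. The counting tool, its strand setting and the annotation were not given in the sources used here. Each library listed 58173 rows, of which 5771 repeated a symbol, and their counts were summed.

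Counts were analysed with edgeR 4.0.16 in R 4.3.3: low counts were removed with filterByExpr, RLE factors ran from 0.985 to 1.016, and a single quasi-likelihood model over the 10 libraries gave two-sided p-values, adjusted by Benjamini and Hochberg over 14884 genes. Calls needed an adjusted p under 0.05. Intervals are at 95%, from the fit's degrees of freedom. All groups share one estimate of the spread, since a pair of libraries gives a poor estimate of its own. The 2 libraries of each group differed by more than counting error (chi-square over degrees of freedom 1.78 to 2.76), so none was counted as a repeat. The members, the gene lists and the tests were chosen with earlier results of these data known. Beyond the members, CCN1, CCN2, ZEB1, ZEB2 and the lists of markers, the genes named were chosen as the 3 called genes of largest change per list and comparison and the 2 genes of highest correlation with each member. SAV1, TAOK1, MOB1B, STK38, RASSF1 and LIMD1 were named after their values were seen, and MOB1A and STK38L as the paralogues of MOB1B and STK38. For the 3′UTR words, GENCODE v29 transcripts with a stop codon were used, and for levels per length its exon unions. Promoter windows for 2 members, TEAD1 and TEAD4, were not used here, and some sequence matches, among them those of the miR-92b-5p word in the members, and some marker genes are not reported here. Other settings tried were scaling by TMM or by totals alone, the exact test of edgeR and the Wald test of DESeq2 1.42.0, fits restricted to the pair of groups, no filter or a minimum of 10 counts per library, the replicate number as a block, omission of each library in turn, and the longest 3′UTR.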

Additional observations from a re-analysis of the deposited data

How the results depend on the processing

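Of 1260 alternative values of the members' fold changes, 1198 kept their direction and side of the threshold. The rest were 28 that lost the call, 12 that gained one and 22 that changed sign, none of the last while called. Many of these runs left out a library of a group outside the comparison, which acts on it mainly through the shared spread. The 1198 are therefore no measure of stability on their own. Against miRcontrol 20 of 28 calls held under every alternative run, and 5 of the other 8 were lost only by leaving out a library. Sign changes met values near 0. For MIX against miR3124_mimic, YAP1 was 0.0032 with TMM scaling. For MIX against miR92b_inhibitor, NF2 was 0.0041 with library totals only, 0.0025 with at least 10 counts in every library and 0.0075 in a fit of only the 2 groups compared. Leaving out a library gave ranges of -0.056 to 0.073 for LATS2 in miR3124_mimic, -0.036 to 0.066 for LATS1 and -0.14 to 0.095 for TEAD4 in miR200b_mimic, -0.11 to 0.0032 for WWTR1 in miR92b_inhibitor and -0.0052 to 0.013 for TEAD1 in MIX. For MIX against miR3124_mimic the ranges were -0.056 to 0.033 for YAP1 and -0.026 to 0.20 for TEAD4, against miR200b_mimic -0.031 to 0.060 for LATS2, and against miR92b_inhibitor -0.027 to 0.040 for TEAD3 and -0.029 to 0.021 for NF2. The count of other Hippo genes called in miR3124_mimic ranged from 12 to 20 and that of members called for MIX against miR200b_mimic from 5 to 8. The replicate numbers are shared by the groups, but the differences within groups correlated at only -0.0365 to 0.0445 between groups over 12900 genes. No strong shared replicate effect was thus seen. Whether libraries of the same number were handled together was not given in the sources used here. With the replicate block 7 members were called in miR92b_inhibitor in place of 6, LATS2 being added (0.12, adjusted p = 0.0498), and the counts of members called in the other 6 comparisons were unchanged at 8, 6, 8, 5, 8 and 5. The causes were not tested. With 2 libraries a group, the least abundant members, TEAD3 and TEAD4, had an SE of 0.08, and a log2 change of -0.17 in TEAD3 did not pass the threshold.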
